A study of Mus musculus with 2 samples.

Results

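The 10 genes described here serve the muscle cell surface: Dysf, Trim72, Anxa1, Anxa2 and Anxa6 in membrane repair, Cav1, Cav3, Cavin1 and Cavin4 in caveolae, and Bin1 in transverse tubules. They were taken by name from a list of the field's genes and not by a rule on their values, though earlier results of these data were known. They are 10 of the 55536 Ensembl genes with a name in the tables. The tissue was gastrocnemius, the large calf muscle, from female B6CASTF1/J mice, a first-generation cross of C57BL/6J with CAST/EiJ, at an age of 10 days. There was 1 group of 2 libraries, labelled biological replicates 1 and 2. Each was made from 300 ng of total RNA with ERCC spike-ins, synthetic RNAs added in known amounts. The labels name no treatment or genetic alteration. They do not say whether a library came from 1 animal or several, and both biosamples carry the same donor identifier. The libraries held 35925081 and 39969380 expected counts. A floor of 3 counts corresponded to 0.0841 and 0.0757 CPM, taken over the counts of named genes alone. With 1 group of 2 libraries no comparison of conditions exists. A two-sided sign-flip test on both libraries could not go below 0.5, so no p is given, and errors are the SD over both libraries (n = 2). That SD measures only the spread between these samples.

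The muscle fibre membrane is strained at every contraction, and tears in it are closed within seconds by vesicles and annexin patches that calcium entry recruits. Dysferlin, a calcium-binding membrane protein with a row of C2 domains, and MG53, the product of Trim72, act at the tear together with annexins. Caveolae are flask-shaped pits built from caveolins and coated by cavins, and they flatten when the membrane is stretched. Transverse tubules are inward tubes of the same membrane that carry the action potential to the calcium release units, and amphiphysin 2, the product of Bin1, bends membrane into such tubes. Loss of dysferlin, caveolin 3, cavin 1 or amphiphysin 2 causes inherited muscle disease in people.

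All 10 genes were detected, meaning a level of at least 1 TPM in both libraries. The share of all nuclear protein coding genes that reached this limit was not computed, so counts of detected genes are descriptive only. TPM, an abundance scaled by transcript length to a fixed total per library, lets levels of different genes be set side by side. The median member stood at 97.9 TPM, against 9.35 TPM over the 11509 nuclear protein coding genes detected, and together the members held 0.251% ± 0.0117 (SD, n = 2) of the TPM of nuclear protein coding genes. Bin1 was highest at 332 TPM ± 6.24, which was rank 153 of those 11509 genes. Anxa1 was lowest at 12.9 TPM ± 3.79, rank 4508. The span from lowest to highest was 25.8-fold. Between these ends lay Cav1, Anxa6, Cavin1, Trim72, Cavin4, Cav3, Anxa2 and Dysf, in falling order of mean TPM.

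In the RSEM-format tables, neighbours in that order differed by more than the spread between libraries except for Cav3 and Anxa2. Their log2 TPM ratio was 0.03 ± 0.31, and it changed sign from one library to the other. The order was set from these same values, and 1 SD of 2 libraries is a loose limit. The comparison of neighbours is therefore a description and not a test. Anxa6 and Cavin1 were nearly level, with a log2 ratio of 0.02, and the tables' intervals for these genes overlapped in each library. In the second kind of table, which follows the kallisto format, Cavin1 stood above Cav1 and Anxa6. Anxa2 and Dysf were not apart beyond their spread there, with a log2 ratio of 0.55 ± 0.74. The TPM as deposited was higher there for every member, from 19.7 TPM for Anxa1 to 576 TPM for Bin1. With both kinds of table rescaled to the same total over nuclear protein coding genes, only Bin1 was higher by the kallisto format, 774 against 723. The means of the other members were lower, as 276 against 330 for Cav1. Some were lower by less than their spread, as 279 against 288 for Cavin1. Bin1 was highest and Anxa1 lowest in both kinds of table.

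**Figure D1:**
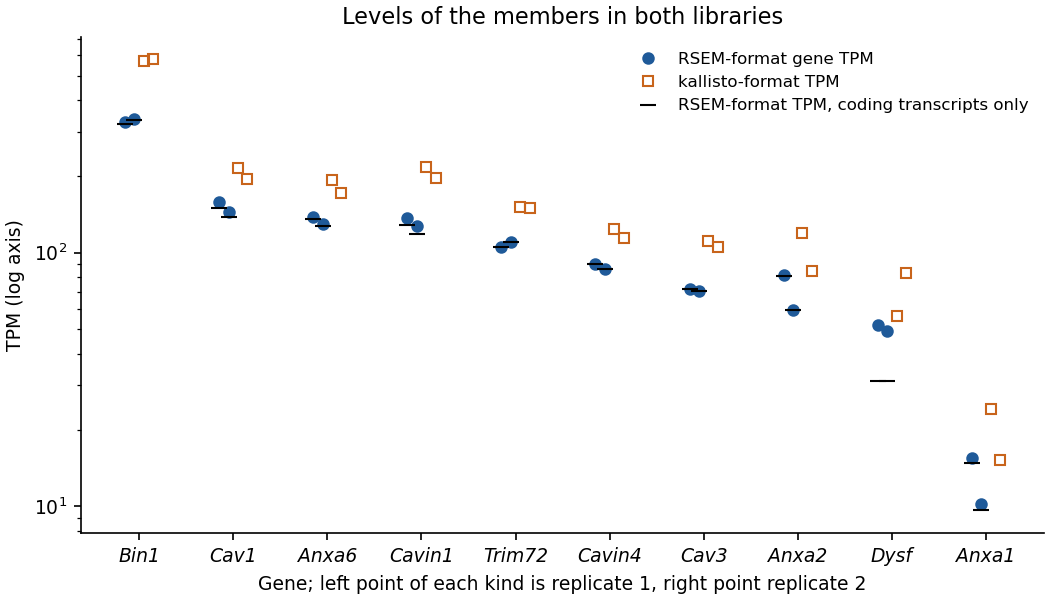
Level of each member in TPM on a log axis, as points for replicates 1 and 2 from the RSEM-format gene tables (circles), the kallisto-format tables (squares) and the coding transcripts of the RSEM-format tables alone (dashes). Bin1 sits highest in both kinds of table and Anxa1 lowest, and the dashes fall well below the circles only for Dysf.

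Dysf, the gene of dysferlin (chromosome 6, 84008590 to 84211060, plus strand), had 51.93 TPM in replicate 1 and 48.94 TPM in replicate 2, from 6029 and 6798 counts. The libraries were close, but the gene's TPM depended on 1 short RNA. Dysf-207, a noncoding transcript of 404 nt, took 30.7% of the gene's TPM in replicate 1 and 26.5% in replicate 2 on only 137 and 127 counts, because TPM divides by length. The coding transcripts alone had 31.31 and 31.28 TPM. These were 60.3% and 63.9% of the gene's TPM but 96.1% and 96.8% of its counts. In the kallisto-format tables Dysf-207 held 0% of the gene in replicate 1 and 42.2% in replicate 2, so its share differed between libraries there and between the kinds of table. The spread of Dysf there was 69.8 TPM ± 19.0. A further short noncoding RNA of the gene, Dysf-208 (549 nt), held 7.34% and 8.64%.

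The 12 complete coding transcripts of Dysf begin at 1 of 2 first exons. The downstream one, starting at position 84019385, was in 65.7% ± 1.63 of their summed TPM (59.0% ± 8.42 by the kallisto format). The upstream one, at 84008590, was in the remaining 34.3%. Dysf-202 (6613 nt, downstream start) led at 33.3% and 41.8% of the gene, Dysf-204 (6803 nt, upstream start) followed at 14.8% and 15.5%, and Dysf-201 (6660 nt) had 5.67% and 0.78%. In the kallisto-format tables Dysf-202 had 25.1% and 14.9%, Dysf-204 had 21.9% and 14.9%, and Dysf-201 had 18.7% and 0.063%, so the lead of Dysf-202 over Dysf-204 was small there. Both first exons were therefore represented in each library, with the downstream one ahead in both kinds of table.

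Exons that coding transcripts of Dysf may include or skip are shown next, because their use sets which dysferlin is encoded. Each is a whole number of codons and so leaves the reading frame intact. Capitals mark the exon and lower case the 24 bases of spliced RNA on either side, 5′ to 3′, in mm10.
Dysf exon at chr6:84096477-84096518 (+): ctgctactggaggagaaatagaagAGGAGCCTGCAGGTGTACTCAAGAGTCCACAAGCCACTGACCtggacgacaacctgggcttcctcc
Dysf exon at chr6:84064471-84064563 (+): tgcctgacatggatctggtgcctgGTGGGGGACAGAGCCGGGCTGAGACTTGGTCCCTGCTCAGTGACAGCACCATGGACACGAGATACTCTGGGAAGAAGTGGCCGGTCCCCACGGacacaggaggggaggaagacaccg
Dysf exon at chr6:84157139-84157201 (+): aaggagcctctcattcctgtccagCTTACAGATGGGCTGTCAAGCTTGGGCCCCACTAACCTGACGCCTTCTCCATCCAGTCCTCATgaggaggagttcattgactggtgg
The first of these, of 42 nt, was included in most coding Dysf RNA: 80.8% in replicate 1 and 90.3% in replicate 2. The 93-nt exon was in 19.2% and 10.1%, and the 63-nt exon in 9.81% and 8.25%. An exon of 30 nt further along was in 99.7% ± 0.452. In the kallisto-format tables the 42-nt exon was in 75.8% and 90.2% and the 30-nt exon in 98.9% ± 1.49. The 93-nt exon was in 24.2% and 15.5% there and the 63-nt exon in 13.7% and 17.5%, so the order of these less used exons turned in replicate 2. These shares are divided among long transcripts by a model, and reads across single junctions were not analysed here.

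Trim72 (chromosome 7, 128003949 to 128011033, plus strand) encodes MG53, a muscle ubiquitin ligase that gathers repair vesicles at a tear. It had 105.33 and 110.01 TPM, from 6025 and 7170 counts, so both libraries were alike. Its level exceeded that of Dysf in both, with a log2 ratio of 1.09 ± 0.10, a 2.14-fold difference in TPM. Against the coding transcripts of Dysf alone the log2 ratio was 1.78 ± 0.05. Nearly all Trim72 RNA, 98.3% and 99.2%, was assigned to Trim72-202, whose first exon starts at 128003949. The RefSeq promoter entry for this gene lies before the other first exon, at 128004378, so it is not shown.

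Anxa6 was the leading annexin among the members, Anxa2 was intermediate and Anxa1 was lowest. Annexins bind membranes when calcium rises. Anxa6 (chromosome 11, 54979108 to 55033445, minus strand) encodes the double-length member of the family that forms the cap over a torn fibre membrane, and it had 138.48 and 129.32 TPM. Anxa2 (chromosome 9, 69453620 to 69491795, plus strand), whose protein pairs with S100A10 and binds dysferlin, had 82.00 TPM in replicate 1 and 59.68 TPM in replicate 2. Anxa1 (chromosome 19, 20373428 to 20390944, minus strand), a membrane-aggregating annexin also abundant in neutrophils, had 15.53 and 10.17 TPM. Anxa2 and Anxa1 were lower in replicate 2, and for each the TPM intervals of the libraries did not overlap. These were 77.9 to 84.0 against 56.7 to 61.4 for Anxa2 and 14.6 to 17.6 against 9.67 to 12.03 for Anxa1. This did not set them apart, since the intervals of Anxa6, 133 to 138 against 124 to 129, did not overlap either. Those of Cavin1, 131 to 137 against 122 to 128, were likewise separate. The share of all genes with such intervals was not counted. Within a library Anxa2 exceeded Anxa1 by a log2 ratio of 2.48 ± 0.11, or 5.57-fold. Anxa6 exceeded Anxa2 by 0.94 ± 0.25 on the log2 scale, or 1.91-fold.

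Anxa6 was spliced in 2 coding forms that differ by an exon of 18 nt. It is shown because it sets both forms of the most abundant annexin apart, with the exon in capitals between 24 bases of the spliced RNA on each side, on the minus strand of mm10.
Anxa6 exon at chr11:54987051-54987068 (-): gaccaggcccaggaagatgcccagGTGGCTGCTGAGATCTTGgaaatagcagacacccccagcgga
The exon was included in 69.3% of coding Anxa6 RNA in replicate 1 and 64.9% in replicate 2, and in 71.7% ± 2.28 by the kallisto format. The longer form, Anxa6-202 (2489 nt), thus led in both libraries and both kinds of table, ahead of Anxa6-201 (2471 nt). Anxa2 was nearly all Anxa2-201, at 97.1% and 98.7% of the gene. Anxa1 was split between Anxa1-201 and Anxa1-208, which encode the same 346 codons and differ outside them, among others by an exon of 219 nt. Anxa1-208 held 43.6% of the gene in replicate 1 and 27.9% in replicate 2, while the kallisto format gave 15.8% and 32.2%. The change between the libraries thus had no consistent direction. Anxa1-201 led in both libraries and both kinds of table, at 51.8% and 66.9%, and 82.5% and 64.5% by the kallisto format.

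Among the caveola genes, the members of broad distribution exceeded their muscle counterparts. Cav1 (chromosome 6, 17306335 to 17341452, plus strand), the caveolin of endothelium, fibroblasts and fat, had 158.32 and 145.02 TPM. Cav3 (chromosome 6, 112459505 to 112472872, plus strand), the caveolin of muscle fibres, had 71.66 and 70.78 TPM. The log2 ratio of Cav3 over Cav1 was -1.09 ± 0.08, so Cav1 was 2.13-fold higher. Cavin1 (chromosome 11, 100956733 to 100970887, minus strand), the coat protein that caveolae of all tissues need, had 136.65 and 127.46 TPM. Cavin4 (chromosome 4, 48663514 to 48673502, plus strand), the cavin of muscle, had 89.90 and 86.52 TPM, which was 1.5-fold lower, with a log2 ratio of -0.58 ± 0.03. Cav2, which forms complexes with caveolin 1, had 14.77 and 13.19 TPM, and Cav1 exceeded it 10.9-fold.

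These are levels in whole tissue, in which fewer cells of a type and less RNA per cell cannot be told apart. Endothelial markers were present beside Cav1: all 8 of 8 were detected, led by Cdh5 at 70.2 TPM and Egfl7 at 53.2 TPM. The sum of these markers was 275 TPM in replicate 1 and 226 TPM in replicate 2. With counts scaled so that ratios centre over genes (TMM), 6 of 8 were instead higher in replicate 2, with a median log2 ratio of 0.04. The fat cell genes Fabp4 and Lpl had 130 and 77.1 TPM, while Adipoq, a defining fat cell gene, had 5.50 and 2.66 TPM. The fibroblast and matrix markers were all detected too, with Col1a1 at 2714 TPM and Col1a2 at 1553 TPM. Whether these cells contributed to the level of Cav1 was not tested.

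Caveolin genes are related in sequence, which bears on whether reads of one can be counted for the other. The coding sequences of Cav1 and Cav3 were 72.2% identical over 453 aligned nt, with no identical run longer than 15 nt. Their most alike stretch of 60 nt had 52 identical bases, and 7 of its 8 differences fell on the third position of a codon. It is shown for codons 126 to 145 of Cav1 and 99 to 118 of Cav3, with the differing bases in capitals.
Cav1: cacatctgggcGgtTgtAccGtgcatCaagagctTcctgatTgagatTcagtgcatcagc
Cav3: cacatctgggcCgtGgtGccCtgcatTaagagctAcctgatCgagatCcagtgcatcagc
Other related members were no closer. Coding identity was 58.4% for Cavin1 and Cavin4, 61.9% for Anxa1 and Anxa2, 67.3% for Anxa2 and Anxa6, and 69.3% for Anxa1 and Anxa6, with identical runs of at most 16 nt.

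Cav1 is known in a longer alpha form and a shorter beta form that starts at an internal methionine. The start of the alpha coding sequence is shown because the forms differ in it. The capitals are the first codons of the alpha and the beta form, in spliced RNA of the plus strand. The range given ends at the base before the beta codon, which follows it directly.
Cav1 alpha start (spliced, within chr6:17306450-17307943): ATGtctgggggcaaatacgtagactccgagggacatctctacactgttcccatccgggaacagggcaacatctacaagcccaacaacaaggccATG
Transcripts encoding the alpha form, of 178 codons, held 75.5% ± 0.761 of complete coding Cav1 RNA, and those encoding the beta form, of 147 codons, held 23.1% ± 0.521. In the kallisto-format tables the forms were nearly even, at 49.8% ± 1.08 and 48.2% ± 0.375. The share of the alpha form thus moved by over 1.5 times between the kinds of table while the libraries were close within each. The difference lay mainly in Cav1-202 (2746 nt), a beta transcript whose RNA overlaps that of Cav1-201 (2522 nt). It had 7.91% and 9.71% of the gene in the RSEM-format tables and 34.7% and 33.7% in the kallisto-format tables. A shorter beta transcript, Cav1-203 (613 nt), had 12.8% and 13.3% on average in these kinds of table.

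Cav3 and Cavin4 have 1 annotated transcript each, and Cavin1-201 (3491 nt) held 94.4% and 92.9% of Cavin1. A noncoding RNA of the same gene, Cavin1-202 (658 nt), held 5.59% and 7.06%, and 10.4% and 14.4% by the kallisto format. The bases before the start of Cav3, from RefSeq on GRCm38.p6, are printed for the letters CAGCTG, an E-box of the kind that myogenic factors bind. Among the members' promoters searched, which did not include those of Anxa6 and Bin1, this muscle caveolin was the single entry with these letters. It was chosen after its values were seen. The 120 bases upstream of the start are on the plus strand, with the E-box in capitals.
Cav3 promoter at chr6:112459385-112459504 (+): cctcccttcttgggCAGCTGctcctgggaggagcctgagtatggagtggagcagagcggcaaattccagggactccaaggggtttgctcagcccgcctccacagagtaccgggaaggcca
The letters start 106 bases before the RefSeq start, and 13% of all 32851 RefSeq promoters of the same 250 upstream bases hold them on either strand. The broader letters CANNTG, which include CAGCTG, were in 66.2% of all promoters and in those of Cav1, Cav3, Cavin4 and Trim72. CATTCC, the MCAT letters bound by TEAD factors, were in 12.6% of all promoters and in those of Anxa1 and Cavin1. A match describes the letters only, and no binding was measured here.

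Bin1 (chromosome 18, 32377230 to 32435737, plus strand) was the most abundant member, with 327.68 TPM in replicate 1 and 336.51 TPM in replicate 2 from 15722 and 18379 counts. Both libraries were alike. Dnm2, the dynamin that cuts membrane necks and binds amphiphysin 2, had 28.55 and 22.23 TPM, and Bin1 exceeded it by a log2 ratio of 3.72 ± 0.28, or 13.2-fold. Amph, the neuronal relative of Bin1, had 0.88 and 0.61 TPM.

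Bin1 RNA was mostly assigned to 2 of the annotated forms. Bin1-205 (1886 nt, 410 codons) held 62.2% of the gene in replicate 1 and 66.4% in replicate 2, and Bin1-206 (1530 nt, 434 codons) held 31.0% and 28.6%. Bin1-202 (2091 nt, 477 codons) held 3.98% and 3.35%, and Bin1-201 (2406 nt, 588 codons), the longest, held 0.82% and 0.73%. Bin1-204, a transcript with a retained intron, had 1.83% and 0.87%. Bin1-203, an incomplete coding transcript of 539 nt, had 0.16% and 0% but 2.76% and 6.38% by the kallisto format. Bin1-205 led in both libraries and both kinds of table, with 50.9% ± 3.01 by the kallisto format.

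The complete coding forms of Bin1 share 13 coding exons and differ by 6 others, each a whole number of codons. The exon of 72 nt was in 34.8% ± 2.50 of complete coding Bin1 RNA (46.0% ± 4.29 by the kallisto format). The exon of 129 nt was in 4.51% ± 0.557 (5.63%). The exons of 93, 108, 24 and 108 nt were only in Bin1-201, at 0.788% ± 0.0751 (1.18%). That long form, with the exons for clathrin and AP2 binding, is known from neurons. In the figure of coding exons, the leading annotated form is the one with none of these 6 optional exons. The muscle exon for phosphoinositide binding, which amphiphysin 2 uses in tubule formation, was in none of the 6 Bin1 transcripts of the annotation used for these tables, so its inclusion was not analysed here.

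**Figure D2:**
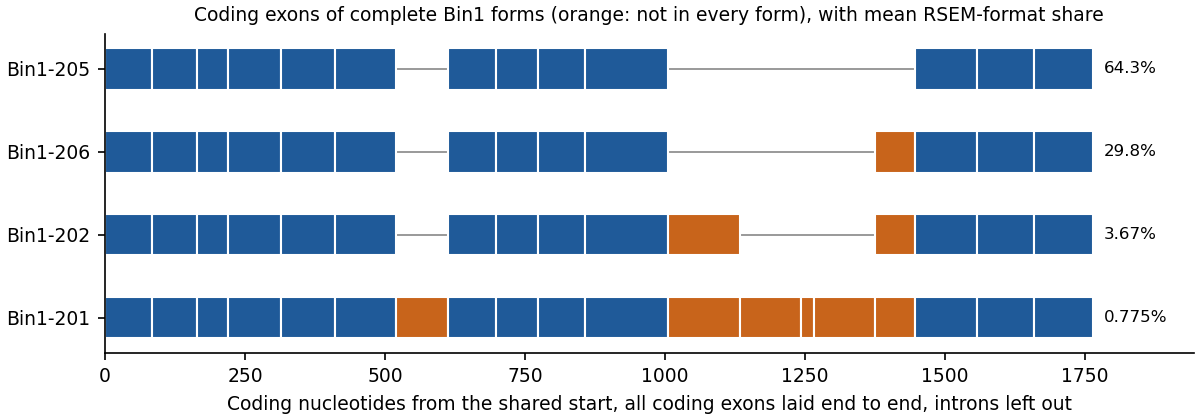
Coding exons of the 4 complete Bin1 forms drawn to scale in nucleotides and laid end to end with introns left out, blue where every form has the exon and orange where not, with the mean RSEM-format share of the gene at the right. Bin1-205, with 64.3%, has no orange exon, Bin1-206, with 29.8%, has only the 72-nt exon, and Bin1-201, with 0.775%, has all 6.

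**Figure D3:**
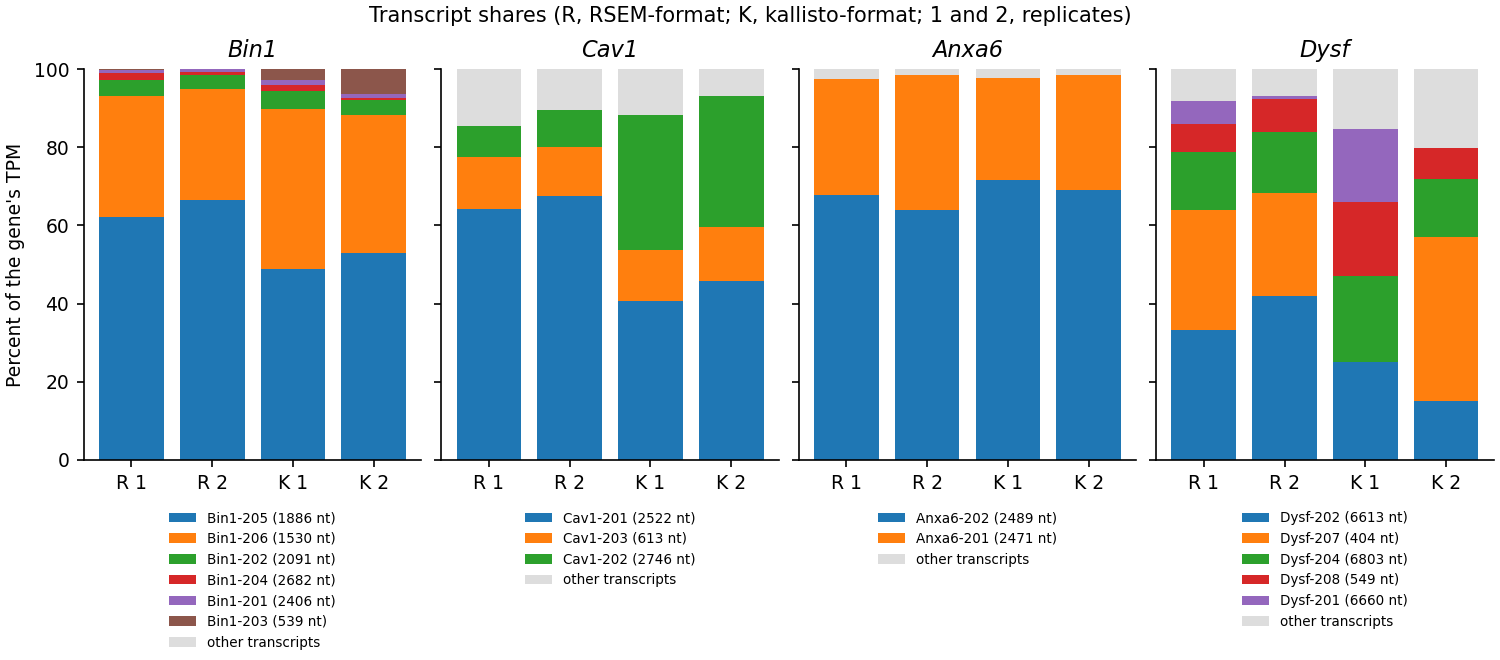
Percent of each gene's TPM held by its named transcripts, stacked to 100%, for Bin1, Cav1, Anxa6 and Dysf, with 1 bar per library from the RSEM-format (R) and the kallisto-format (K) tables. The bars of Anxa6 are alike in all 4, those of Cav1 differ between the kinds of table in Cav1-202, and those of Dysf differ in Dysf-207, at 0% and 42.2% in the kallisto-format bars.

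Genes that work with the members were described from 5 lists. Of 9 caveola genes outside the members, 8 were detected, led by Pacsin3, a membrane-bending protein of muscle, at 143 TPM, and by Ehd4 and Ehd2, ATPases at the caveola neck, at 57.5 and 52.4 TPM. Pacsin1, the neuronal relative, had 60 counts in replicate 1 and 3 in replicate 2. Of the 5 other ferlins, only Myof and Fer1l6 were detected. Myof, myoferlin, which acts in myoblast fusion, had 6.28 and 4.05 TPM, and Dysf exceeded it by a log2 ratio of 3.32 ± 0.39. With only the coding transcripts of Dysf the ratio was 2.63 ± 0.45. Fer1l6 had 2.85 and 3.46 TPM, Otof 0.16 and 0.12 TPM, and Fer1l4 had no count in either library. Dysf was thus the leading ferlin in both libraries.

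Of 9 other annexins 5 were detected. Anxa5 (63.9 TPM ± 10.4), Anxa11 (42.9 TPM ± 0.467) and Anxa7 (15.4 TPM ± 2.60) led them, and Anxa10 had no count. All 17 repair partners were detected. Capns1, the small subunit of calpains, led at 149 TPM ± 3.08. Ahnak, a giant protein bound by dysferlin and S100A10, had 105 TPM ± 17.9, and S100a11, the S100 partner of Anxa1, had 72.7 TPM ± 16.1. Among 14 genes of T-tubules and triads, 13 were detected. Ryr1, the calcium release channel, led at 322 TPM ± 0.679, ahead of Tcap, telethonin, at 258 TPM ± 1.73 and Cacna1s, the voltage sensor of the tubule membrane, at 257 TPM ± 13.5. Bin1 and Ryr1 had 332 and 322 TPM in these tables, and by the kallisto format Bin1 had 571.7 and 579.5 TPM against 449.2 and 461.8 TPM for Ryr1.

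**Figure D4:**
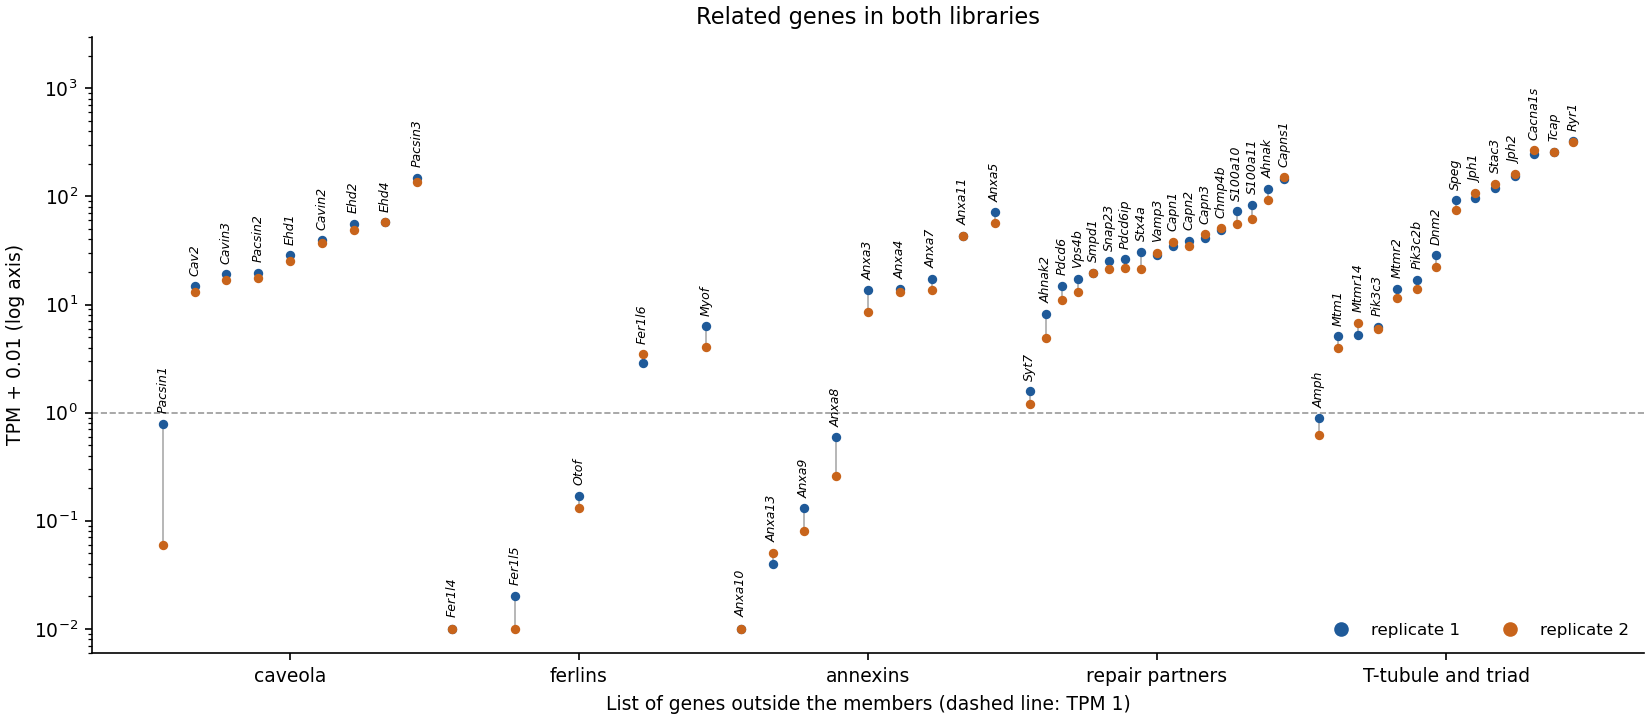
Level of each related gene outside the members, as TPM + 0.01 on a log axis, with replicate 1 in blue and replicate 2 in orange, grouped by list and ordered by mean within it. Pacsin3, Myof, Anxa5, Capns1 and Ryr1 lead their lists, and Fer1l4 and Anxa10 sit at the bottom with no count in either library.

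Between the libraries, no member differed by 1.5-fold after TMM scaling of counts, which centres the ratios over genes: 0 of 10 members did, against 15.8% of the 16790 genes tested. The tested genes include all that averaged 10 counts or more, while the members averaged from 578 (Anxa1) to 17050.5 (Bin1). The share past 1.5-fold among genes with counts like those of the members was not computed. By that scaling 8 of 10 members were higher in replicate 2, against 49.2% of tested genes, with a median log2 ratio of replicate 2 over replicate 1 of 0.19 for the members and -0.01 for all genes. The ratios ran from -0.34 for Anxa1 and -0.20 for Anxa2 to 0.29 for Bin1 and 0.31 for Trim72. Whether a member was higher depended on the scaling. In TPM only Bin1 and Trim72 were higher in replicate 2, scaling by library totals left 4 of 10 higher (Dysf, Trim72, Cav3 and Bin1), and scaling by the spike-ins left 0 of 10. Relative to TMM, these last scalings moved the median of all genes by -0.21 and -0.36 on the log2 scale, to -0.22 and -0.37. The share of all tested genes above 0 by them was not counted. Anxa1 and Anxa2 were lower in replicate 2 by each of these measures, and they were the lowest of the 10 ratios by each scaling of counts. By spike-ins their log2 ratios were -0.70 and -0.57, the first of them past 1.5-fold.

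The related lists were mixed in direction by TMM scaling. In replicate 2, 8 of 9 caveola genes, 1 of 3 ferlins, 2 of 6 annexins, 10 of 17 repair partners and 9 of 14 T-tubule genes were higher among those averaging 10 counts or more, and the list medians ran from -0.13 for ferlins to 0.20 for T-tubule genes. By spike-in totals the counts of higher genes were 0 of 9, 1 of 3, 0 of 6, 2 of 17 and 3 of 14 in the same order, so the direction of the caveola, repair partner and T-tubule lists depended on the scaling. By spike-in totals the median log2 ratio of all tested genes was itself -0.37, and their share above 0 was not counted. Of the S100 partners, S100a10 had 73.33 and 55.56 TPM and S100a11 had 84.09 and 61.34 TPM. Their log2 ratios were only -0.15 and -0.21 by TMM, and -0.52 and -0.57 by spike-in totals.

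Marker lists of cell types differed between the libraries to unlike degrees. The muscle fibre markers, led by Acta1 and Mylpf, summed to 78653 TPM in replicate 1 and 92580 TPM in replicate 2, and 8 of 8 had a TMM ratio above 0, with a median of 0.47. Fibroblast and matrix markers summed to 7541 and 4630 TPM, and 7 of 8 were lower in replicate 2 by TMM, with a median log2 ratio of only -0.08. Just 2 were past 1.5-fold, Col1a1 at 3542 and 1887 TPM and Col1a2 at 1983 and 1123 TPM. Bone markers summed to 224 and 0.68 TPM, with Bglap, Ibsp and Col10a1 at 0 in replicate 2. Neutrophil markers summed to 49.6 and 0.38 TPM, with Ngp, Elane and Camp at 0 there. The macrophage sum was 86.1 and 64.2 TPM, led by Lyz2 and Csf1r, and the Schwann cell sum 206 and 183 TPM, led by Pmp22 and Mbp. By TMM 2 of 7 macrophage markers were higher in replicate 2, with a median log2 ratio of -0.23. For Schwann cell markers 2 of 4 were higher, Pmp22 and Mbp among them, and the median was -0.02. The smooth muscle sum was 407 and 476 TPM, with Acta2 at 228.9 and 314.07 TPM and the next marker, Rgs5, at 92.32 and 85.6 TPM. The adipocyte sum was 238 and 196 TPM, 5 of 6 of these markers were lower in replicate 2, 4 of them past 1.5-fold, and their median TMM log2 ratio was -1.14. The part of these cells in the ratios of the members was not tested.

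**Figure D5:**
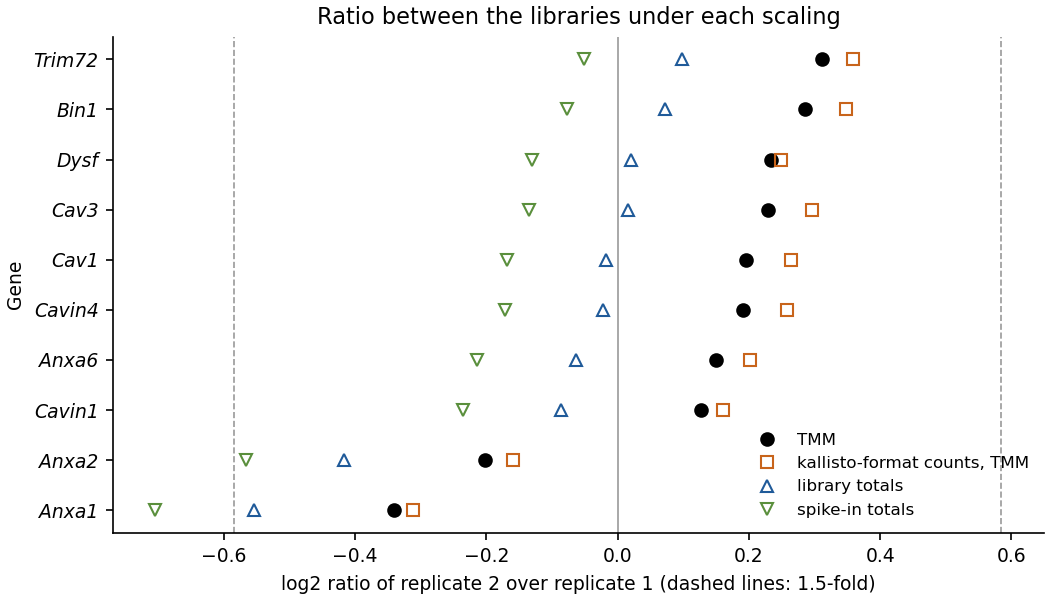
Log2 ratio of replicate 2 over replicate 1 for each member, ordered by the TMM value, under TMM, TMM of kallisto-format counts, library totals and spike-in totals, with dashed lines at 1.5-fold. Anxa1 and Anxa2 lie left of 0 under all 4, and the other 8 lie right of 0 by TMM and left of 0 by spike-in totals.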

How the data were processed

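Total RNA of gastrocnemius was measured in 2 libraries of 1 group, placed there by the labels' description. Per the file headers, the deposited gene and transcript tables hold expected counts, TPM, posterior mean TPM and the percent of a gene held by each transcript in the RSEM format, and estimated counts and TPM in the kallisto format. Expected counts divide shared reads by a model, and deposited TPM is per effective length and includes spike-ins. The interval bounds in the RSEM-format tables have no stated level and surround the posterior mean, so a TPM can lie just outside them. The build was mm10 with GENCODE M21, per text files the authors deposited with them. The quantifier of each table is not given in the sources used here.

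Depth was 35666448 and 39650328 counts over named genes, and 258628 and 319050 in spike-ins. Rows with no gene name held 1.378e-05% and 5e-06% of counts and were left out. Kallisto-format values, 35532610 and 39103802 estimated counts, were summed per gene. Expected counts were rounded, filtered at a mean count of 10 and turned to log2 ratios with a prior count of 0.5 (edgeR 4.0.16, R 4.3.3, DESeq2 1.42.0 for size factors). The script was tested on simulated data. A TPM ratio had a called direction if its sign agreed between libraries and its mean was over 1 SD. Exon shares are percents of summed TPM over complete coding transcripts. Sequences and alignments used Biopython 1.88 with GENCODE M21 transcripts and RefSeq promoters. No promoter entry was matched for Anxa6, and member promoters on chromosome 18, which holds Bin1, were not searched.

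The members and lists were chosen with earlier results of these data known. Named are the members, transcripts with at least 10% of their gene (1% for Bin1), the 3 highest of each related list and those at 0, pair partners, and the 2 highest of other-cell lists and those at 0. Pacsin1, Otof, Fer1l6, Amph, S100a10, Adipoq and the Cav3 promoter were chosen after their values were seen. The promoter rule set earlier selected no member. A single gene in each of 2 lists is not reported here. Alternatives covered the kind of table, posterior means, pseudocount, scaling, filter, fold limit and each replicate left out.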

Additional observations from a re-analysis of the deposited data

How the results depend on the processing

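All 10 members stayed detected at 10 TPM, in the kallisto-format tables, by posterior mean TPM and with either replicate left out. The 8 pair ratios kept their direction under every alternative run. In the kallisto-format tables the log2 ratio was -0.92 for Cav3 over Cav1, -0.80 for Cavin4 over Cavin1 and 3.15 for Cav1 over Cav2, each moved by more than 1 SD, and a pseudocount of 1 TPM gave 3.35 for Cav1 over Cav2. Restricting Dysf to coding transcripts, chosen after seeing the data, gave 2.63 for Dysf over Myof and 1.78 for Trim72 over Dysf. The share of Bin1-205 was 50.9% by the kallisto format, and 62.2% to 66.4% with either replicate left out. Members higher in replicate 2 numbered 4 by library totals, 0 by spike-in totals and 2 in TPM (added after seeing the data), against 8, and members at least 1.5-fold apart numbered 1 by spike-in totals, against 0. The cause was not tested. The leading transcript was the same in both kinds of table and both libraries for 9 of 10 members, the exception being Dysf. No paired analysis was possible because there is 1 group.

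Depth limits the short and rare transcripts most: Dysf-207 rests on 137 and 127 counts. With 2 libraries, the SD is itself poorly known. Transcript shares depend on the annotated set, and no value here comes from reads over single junctions.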

Other observations

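Genes that overlap the members in the annotation had few counts. On the opposite strand of Dysf, Gm33024 had 1 and 0 counts and Gm15475 had none, on that of Trim72 Gm15533 had 1 and 1, and on those of Anxa2 and Cav1, Gm16144 and Gm15581 had none. 1500015L24Rik, opposite Anxa1, had no count either. A830052D11Rik, a long noncoding RNA gene opposite Bin1, had 2.34 and 2.14 TPM from 38 counts in each library, against 15722 and 18379 counts for Bin1. Gm7498, a processed pseudogene on the strand of Dysf and within it, had 19 and 7.21 expected counts.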
